A study of Mus musculus with 10 samples.

Results

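Neurexins and neuroligins are cell adhesion proteins that join the 2 sides of a synapse. The genes described here are Nrxn2, Nrxn3, Nlgn1, Nlgn2 and Nlgn3, 5 of 21900 protein-coding genes in the RefSeq annotation of mm10. Dlx2 is a transcription factor with a homeodomain, made by GABAergic neurons of the forebrain and their progenitors. Its bound regions were assigned to a gene when the summit (the base of highest signal in a region) lay within the gene body or 50 kb on either side. By this rule 73 of 25667 summits in 5 lists belonged to the 5 genes. The lists come from chromatin immunoprecipitation and sequencing (ChIP-seq) of mouse brain tissue with an antibody to Dlx2. They cover 2 tissues at postnatal day 3 (P3), the cortex and the olfactory bulb, and 3 at embryonic day 16 (E16), these and the basal ganglia, with 1 library for each tissue and age. The labels give no strain, genotype or treatment and no number of animals. Their protocol names the tissues and no sorting step, so a list may mix several cell types. Of the 10 samples, the 5 input libraries were not analysed here. With 1 library for each tissue and age, no difference between lists has a test or a replicate check.

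Neurexins sit on the presynaptic membrane, where a single gene gives long and short forms from separate start sites. Neuroligins sit on the postsynaptic membrane and bind neurexins across the cleft. Nlgn1 is known for excitatory synapses, Nlgn2 for inhibitory synapses and Nlgn3 for both. GABAergic neurons, the cells in which Dlx2 acts in the forebrain, make the inhibitory synapses.

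The lists hold 2139 regions for P3 cortex, 734 for P3 olfactory bulb, 14795 for E16 basal ganglia, 6333 for E16 cortex and 1666 for E16 olfactory bulb. Read depth is unknown, so a gene without a summit may still be bound below the authors' calling threshold. In 4 lists the peak names record that duplicate reads were removed, and in the P3 cortex list 0 names do. The fold enrichment, the authors' ratio of signal at a summit over local background, and −log10 q, the authors' significance value, are used below only to place a region within its own list. Rank 1 is the highest −log10 q of a list. RNA was not measured, so the tissue labels could not be set against marker genes.

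RefSeq start windows of GRCm38.p6 (250 bases before to 50 after a start) were available for Nrxn3, with 3 windows, Nlgn1, with 2, and Nlgn2, with 1. No Dlx2 region of any list overlapped any of these 6 windows. Over all 32851 windows of the table, 0.791% were overlapped in P3 cortex, 0.192% in P3 olfactory bulb, 3.19% in E16 basal ganglia, 1.13% in E16 cortex and 0.277% in E16 olfactory bulb. The sequences shown are the windows nearest to a summit, at 2.75 kb in Nrxn3 and 2.37 kb in Nlgn2, and the other 2 Nrxn3 windows, of which 1 lies between strong regions and 1 holds a fuller homeodomain motif. They are written 5′ to 3′ on the strand of the gene, with capitals marking ATTA or TAAT, the core letters that homeodomains bind, and TAATTG. The kb value in a name is the distance of the start from the 5′ end of the gene body.

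Nrxn3, start at 1089.8 kb, chr12:89812233-89812532, + strand: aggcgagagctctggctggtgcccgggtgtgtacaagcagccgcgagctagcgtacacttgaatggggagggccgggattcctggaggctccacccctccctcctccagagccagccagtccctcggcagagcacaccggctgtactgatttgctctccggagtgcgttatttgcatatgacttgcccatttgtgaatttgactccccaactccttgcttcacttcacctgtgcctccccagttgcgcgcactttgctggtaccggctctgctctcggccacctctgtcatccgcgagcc
Nlgn2, start, chr11:69837735-69838034, - strand: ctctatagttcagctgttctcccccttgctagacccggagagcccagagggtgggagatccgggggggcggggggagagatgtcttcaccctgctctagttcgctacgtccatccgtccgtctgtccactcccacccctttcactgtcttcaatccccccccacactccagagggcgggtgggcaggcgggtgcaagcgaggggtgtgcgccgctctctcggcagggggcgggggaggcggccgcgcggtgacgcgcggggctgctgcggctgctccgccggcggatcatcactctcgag
Nrxn3, start at 71.8 kb, chr12:88794254-88794553, + strand: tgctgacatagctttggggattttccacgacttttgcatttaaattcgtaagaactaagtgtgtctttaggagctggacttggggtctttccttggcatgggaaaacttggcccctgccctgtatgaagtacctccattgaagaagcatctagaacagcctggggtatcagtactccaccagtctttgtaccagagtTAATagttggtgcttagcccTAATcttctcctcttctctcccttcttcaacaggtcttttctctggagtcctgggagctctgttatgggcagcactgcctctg
Nrxn3, start at 230.7 kb, chr12:88953140-88953439, + strand: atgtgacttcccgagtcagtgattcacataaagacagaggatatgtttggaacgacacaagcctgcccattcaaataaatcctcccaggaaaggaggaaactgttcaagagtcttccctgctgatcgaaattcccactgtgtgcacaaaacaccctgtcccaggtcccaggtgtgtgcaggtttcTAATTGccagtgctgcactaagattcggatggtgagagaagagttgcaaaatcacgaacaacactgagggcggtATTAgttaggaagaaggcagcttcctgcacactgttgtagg

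The core ATTA was searched on both strands, so that TAAT counts as well. A fuller motif, TAATTA, reads the same on both strands. The last motif was CAATTA, which is read on the other strand as TAATTG. The core lies within each of the longer motifs. The Nrxn3 window at 71.8 kb held 2 core matches and that at 230.7 kb held 2, of which 1 lies in the only TAATTG among the 6 windows. The Nlgn2 window and the Nrxn3 window at 1089.8 kb held no core match, and each Nlgn1 window held 1. Of all windows, 58.0% held the core, 8.0% CAATTA or TAATTG and 5.29% TAATTA. The windows without a core match were also GC-rich, at 68.7% in Nlgn2 and 60.7% in Nrxn3, against a median of 52.7% over the table. A match is a string of letters, not a shown binding site. The sequences under the Dlx2 regions themselves were not used here.

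Summits were found at most of the 5 genes in 2 of the E16 lists and at few in the other lists. A summit was assigned to 1 of the 5 genes in P3 cortex, where 12.4% of protein-coding genes had one, and to 0 of 5 in P3 olfactory bulb, against 4.04%. All 5 had one in E16 basal ganglia, against 42.4%, 4 in E16 cortex, against 28.7%, and 1 in E16 olfactory bulb, against 6.62%. Nrxn3 was the member present in P3 cortex and in the E16 bulb, and Nlgn1 was the member missing from E16 cortex. The number of summits was 1 in P3 cortex, 0 in P3 bulb, 50 in E16 basal ganglia, 18 in E16 cortex and 4 in E16 bulb. Per Mb of the genes with their flanks, this was 0.315, 0, 15.8, 5.67 and 1.26 in the same order. The flanked bodies of all protein-coding genes had 0.927, 0.308, 6.98, 3.64 and 0.642. The rates in E16 basal ganglia and E16 cortex were uneven between the genes. Nrxn2 and its flanks held 19 of the 50 summits in basal ganglia and 12 of the 18 in E16 cortex. Per Mb of basal ganglia summits, Nrxn2 had 88.6, Nlgn2 26.2, Nlgn3 16.4, Nrxn3 10.5 and Nlgn1 7.91. In E16 cortex these were 56.0, 17.4, 16.4, 1.17 and 0 in the same order. Most summits lay inside the member itself: 1 of 1 in P3 cortex, 44 of 50 in E16 basal ganglia, 14 of 18 in E16 cortex and 4 of 4 in E16 bulb. In the whole lists 45.7%, 63.4%, 85.8% and 44.5% of summits lay in a protein-coding gene. The remaining 10 lay in or beside Sf1, the gene of a splicing factor, at Nrxn2, and in Fgf11, which encodes an intracellular fibroblast growth factor homologue, at Nlgn2.

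**Figure D1:**
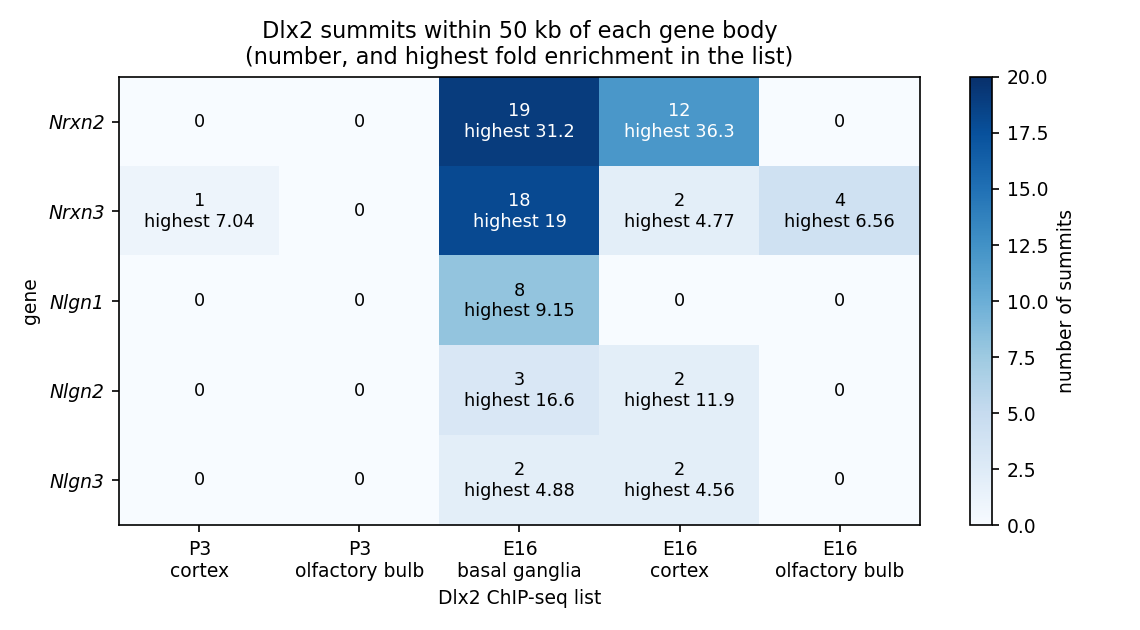
Number of Dlx2 summits within 50 kb of each gene body (rows) in each list (columns), with the highest fold enrichment among them; colour gives the number. E16 basal ganglia holds summits at all 5 genes, while P3 olfactory bulb holds none.

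Nrxn3 (gene ID 18191, chr12:88722701-90334935, + strand, body of 1612.2 kb) was the member found in the most lists. Its 5′ part carried the 3 of its 19 places that were called in 2 or more lists. Of all merged places of the series, 27.1% were in 2 or more lists. The most shared place, chr12:88859443-88860978, was called in 4 lists, while 0.868% of the 18667 merged places of the series were in 4 or more. Its fold enrichment was 7.04 in P3 cortex (rank 319 of 2139), 19.0 in E16 basal ganglia (rank 97 of 14795), 4.49 in E16 cortex (rank 3771 of 6333) and 4.26 in E16 olfactory bulb (rank 1293 of 1666). The summits lay 137.83 kb from the 5′ end of the body in P3 cortex, 137.35 kb in E16 basal ganglia, 137.74 kb in E16 cortex and 137.72 kb in E16 bulb. They spread over 484 bp, with that of the basal ganglia apart from the other 3. The place thus stood high within the P3 cortex and basal ganglia lists and in the lower part of the other lists.

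The next shared place of Nrxn3, chr12:88800613-88801904, was called at E16 only. Its fold enrichment was 15.3 in basal ganglia (rank 115), 4.77 in cortex (rank 4101) and 5.19 in olfactory bulb (rank 737), with summits within 81 bp of each other. Another, chr12:88783784-88785109, had 12.5 in basal ganglia (rank 391) and 6.56 in olfactory bulb (rank 436), and its summits were 5 bp apart. These places flank the annotated start at 71.8 kb printed above, the nearest summit being 6.80 kb from it. Nrxn3 held 19 places in all, of which 15 were in the basal ganglia list alone and 1 in the E16 bulb list alone. That bulb place, chr12:89815074-89815437 (fold enrichment 4.17, rank 1198), lay 2.75 kb downstream of the start at 1089.8 kb.

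Along the gene, most basal ganglia summits lay toward either end. When the body was divided from 5′ to 3′ into 4 equal stretches, these held 8, 2, 2 and 6 of the 18 summits. The 4 highest in fold enrichment were all in the 5′ stretch, between 61.84 and 145.75 kb from the 5′ end; beside the 3 shared places they include one of 11.9 (rank 865). The last stretch held weaker regions than these 4, with fold enrichments of 4.10 to 6.25. The other summits of the 5′ stretch were low too, at 3.78 to 4.66. The single P3 cortex summit, both E16 cortex summits and 3 of the 4 E16 bulb summits lay in the 5′ stretch too. In 4 of the 5 lists a summit was more frequent at long genes than at all genes. Of the 557 protein-coding genes with a body of 300 kb or more, 44.2% had one in P3 cortex, 21.4% in P3 bulb, 80.3% in E16 basal ganglia and 37.7% in E16 bulb. In E16 cortex the share was 25.3%, below that of all genes. Among these 557 genes, 18.0% had at least the 10.5 summits per Mb of Nrxn3 in the basal ganglia, where the median was 3.85, and 4.31% had a region of at least its highest fold enrichment.

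**Figure D2:**
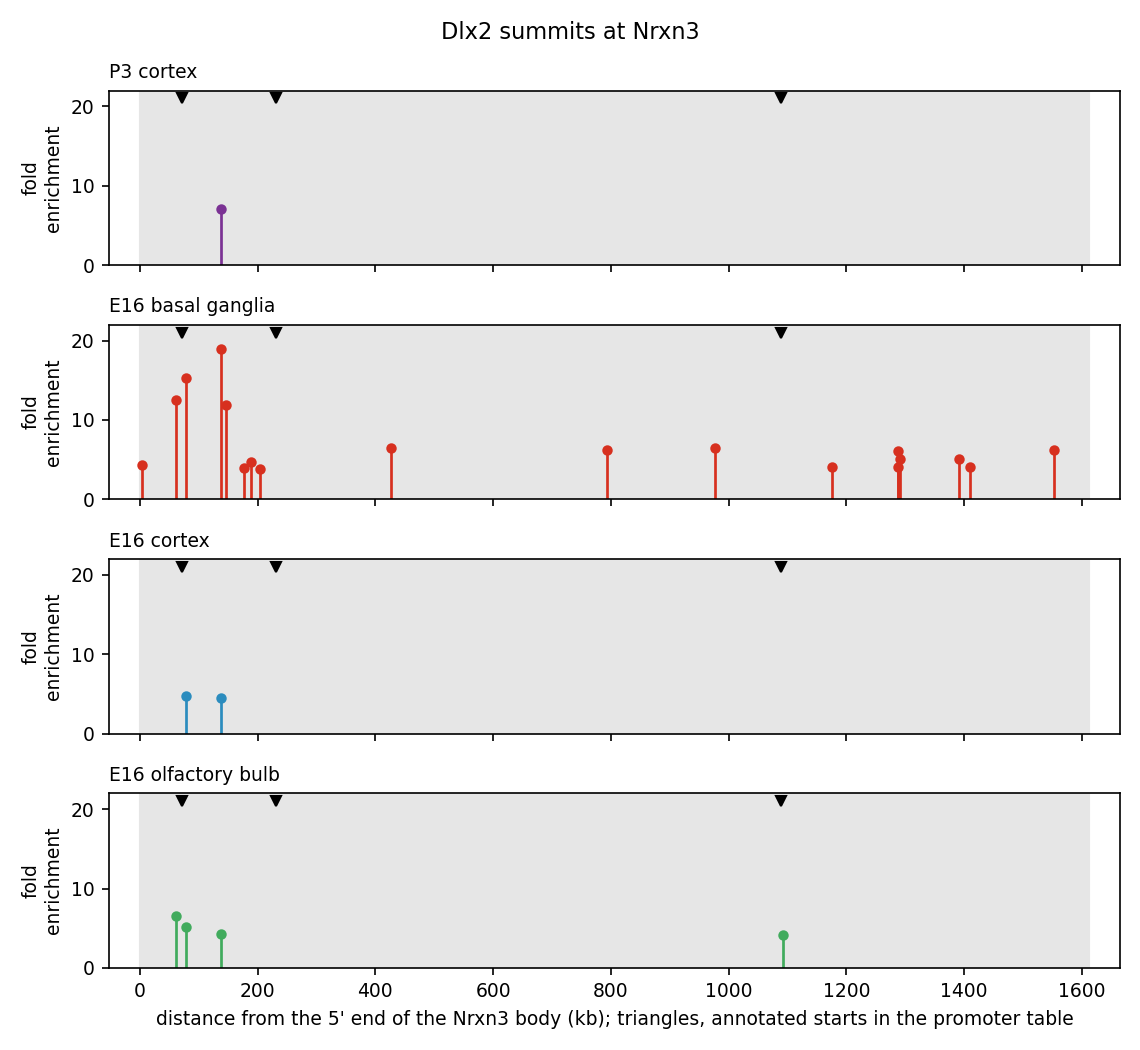
Fold enrichment of each Dlx2 summit at Nrxn3 against its distance from the 5′ end of the gene body in kb, with 1 panel per list that has a summit; grey marks the body and triangles the 3 annotated starts of the promoter table. The summit near 137 kb is present in all 4 panels.

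By the highest fold enrichment in each of the 5 lists, compared as log2(fold enrichment + 1) with 0 for no summit, Ptprd and Enox1 were among the 3 genes most like Nrxn3. The summed absolute difference over the 5 lists was 0.759 for Ptprd and 0.787 for Enox1. Ptprd encodes a receptor phosphatase that also organises synapses. Its highest fold enrichment was 4.58 in P3 cortex, 20.7 in E16 basal ganglia, 4.35 in E16 cortex and 6.56 in E16 bulb, with no summit in P3 bulb. Enox1 had 4.51 in P3 cortex, 17.3 in E16 basal ganglia, 4.78 in E16 cortex and 6.0 in E16 bulb, again with none in P3 bulb. In presence alone, 174 other protein-coding genes (0.795%) matched Nrxn3, a share that does not allow for gene length. Presence in E16 basal ganglia and E16 cortex only, as for Nrxn2, Nlgn2 and Nlgn3, was common, with 4084 genes (18.6%), and presence in E16 basal ganglia only, as for Nlgn1, was found in 2488 others (11.4%).

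Nrxn2 (gene ID 18190, chr19:6418756-6533217, body of 114.5 kb) had the strongest region of the 5 genes, and it was held only by the lists of E16 basal ganglia and E16 cortex. The region chr19:6426493-6430249 of the basal ganglia was 3757 bp wide, with a fold enrichment of 31.2 and rank 24 of 14795. In E16 cortex the region was 3359 bp wide, with 36.3 and rank 41 of 6333. Their summits were 56 bp apart, 9.58 kb and 9.64 kb from the low-coordinate end of the gene. The next strongest region in each list lay at the other end, 1.31 kb from the high-coordinate end in basal ganglia (18.8, rank 173, 2793 bp) and 1.19 kb from it in E16 cortex (21.7, rank 145, 2966 bp). The next inside the gene, 88.30 kb and 88.61 kb from the low-coordinate end, had 9.18 in basal ganglia (rank 1668) and 13.0 in E16 cortex (rank 394). The order of these 3 regions was thus the same in both lists.

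Nrxn2 also drew many weaker regions. With its flanks it had 19 summits in basal ganglia, of which 14 lay in the body, and 12 in E16 cortex, of which 8 lay in the body. As many as 19 were found at 0.260% of protein-coding genes in the basal ganglia, and as many as 12 at 0.676% in E16 cortex. The merged places numbered 20, with 10 in both lists, 8 in basal ganglia alone and 2 in E16 cortex alone. Some of each kind lay in the flank at Sf1. Over the series, 27.1% of merged places were in 2 or more lists. Of the regions at Nrxn2 and its flanks, 7 of 19 in basal ganglia and 7 of 12 in E16 cortex were over 1 kb wide. In the whole lists the shares were 13.8% and 25.2%. The wide ones include regions in Sf1, of 1341 and 1403 bp in basal ganglia and of 1858, 1623 and 1123 bp in E16 cortex. The 5 basal ganglia and 4 E16 cortex summits outside the body were all nearest to Sf1, 40.34 to 47.05 kb from Nrxn2. The strongest of them had 7.62 in basal ganglia and 16.2 in E16 cortex (rank 244), so the flank of Nrxn2 includes strong cortex regions that lie within another gene. Of the 6949 genes with a body of 30 to 300 kb, 49.4% had a summit in the basal ganglia and 28.0% in E16 cortex, and 0.230% had a region at least as high as the strongest of Nrxn2 in the basal ganglia and 0.374% in E16 cortex. Neither Nrxn2 nor its flank had a summit in P3 cortex, P3 bulb or E16 bulb. The lists of E16 basal ganglia and E16 cortex, where Nrxn2, Nlgn2 and Nlgn3 had all their summits, are also the longest. All 14795 and 6333 of their peak names carry the word pos, which the labels do not explain, against 0 names in each of the other 3 lists. What that word marks and the tissue and age cannot be told apart.

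**Figure D3:**
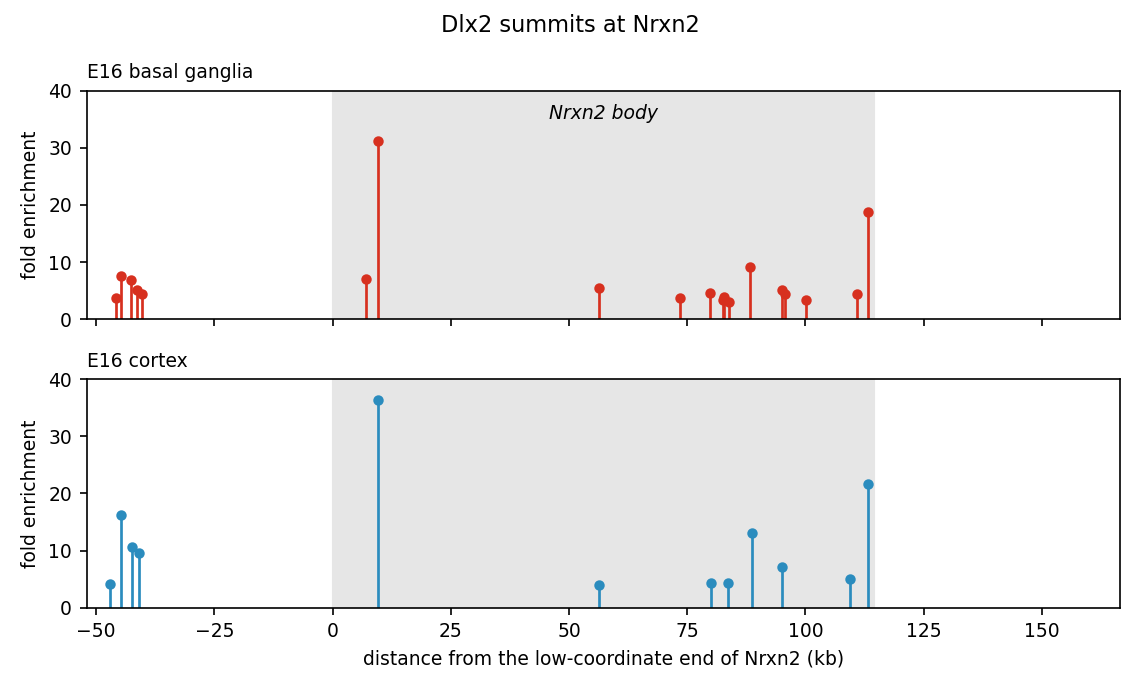
Fold enrichment of each Dlx2 summit at Nrxn2 against its distance in kb from the low-coordinate end of the gene body (grey), in E16 basal ganglia and E16 cortex. Both lists have their highest summits near 9.6 kb and near the other end of the body; the summits left of the body are those at Sf1.

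In E16 basal ganglia, Nlgn1, Nlgn2 and Nlgn3 had 8, 3 and 2 summits, fewer than the 19 of Nrxn2 and 18 of Nrxn3. Their median fold enrichments there were 4.28, 3.45 and 4.5, against 4.56 and 5.57. Per Mb, however, Nlgn2 and Nlgn3 were above Nrxn3 there, and Nlgn1 was below it. In E16 cortex Nlgn2 and Nlgn3 had 2 summits each, as had Nrxn3, whose highest fold enrichment of 4.77 was below that of Nlgn2. Nlgn2 (gene ID 216856, chr11:69823123-69837784, − strand, body of 14.7 kb) held the strongest neuroligin region, at chr11:69833411-69834484, inside the gene. It had 16.6 in E16 basal ganglia (rank 244 of 14795) and 11.9 in E16 cortex (rank 251 of 6333), with summits 8 bp apart, 3.67 kb and 3.68 kb from the 5′ end. Of the 14394 genes with a body under 30 kb, 37.5% had a summit in the basal ganglia and 29.2% in E16 cortex, and 2.38% had a region at least as high in the basal ganglia and 6.90% in E16 cortex. A weaker region nearer to the start of Nlgn2 had 3.45 in basal ganglia (rank 12751) and 4.56 in E16 cortex (rank 4300). A further basal ganglia summit (3.39), 23.11 kb outside Nlgn2, lay in Fgf11. The flanks of Nlgn2 hold 13 other protein-coding genes, so a region there is not tied to Nlgn2 by distance.

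The 50 kb limit mattered at Nlgn2. Just outside it, a region at the zinc finger gene Zbtb4 was called in P3 cortex (50.6 kb away, fold enrichment 30.1), P3 olfactory bulb (50.5 kb, 7.49) and E16 olfactory bulb (50.6 kb, 9.61). With a limit of 100 kb, it would give Nlgn2 a summit in each of these 3 lists. The summit just inside the limit was that in Sf1 in E16 cortex, 47.05 kb from Nrxn2 (4.13), and the next outside there was 54.0 kb away (5.10).

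Nlgn1 (gene ID 192167, chr3:25421808-26332866, − strand, body of 911.1 kb) had 8 summits in E16 basal ganglia and none in the other 4 lists. Of these, 7 had fold enrichments of 3.13 to 4.70, around the list median of 4.55. The other one, chr3:26173122-26174022, had 9.15 (rank 1249) and lay 19.69 kb upstream of an annotated start inside the gene. The summits were spread over the body, with 1, 2, 3 and 2 in 4 equal stretches from 5′ to 3′. The rate of 7.91 summits per Mb was reached by 26.9% of the 557 genes of 300 kb or more. No other protein-coding gene lies within 50 kb of Nlgn1 or of Nrxn3.

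Nlgn3 (gene ID 245537, chrX:101299179-101321350, body of 22.2 kb) had 2 summits in E16 basal ganglia and 2 in E16 cortex, all within 4.46 kb of its low-coordinate end. Those in basal ganglia had 4.88 (rank 6895) and 4.11 (rank 9817), and those in E16 cortex 4.56 (rank 4300) and 3.51 (rank 5663). One pair of regions overlapped, with summits 508 bp apart. All 4 lay near or below the middle of their list, and no other of the 5 genes had its best region in the basal ganglia at so low a rank.

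**Figure D4:**
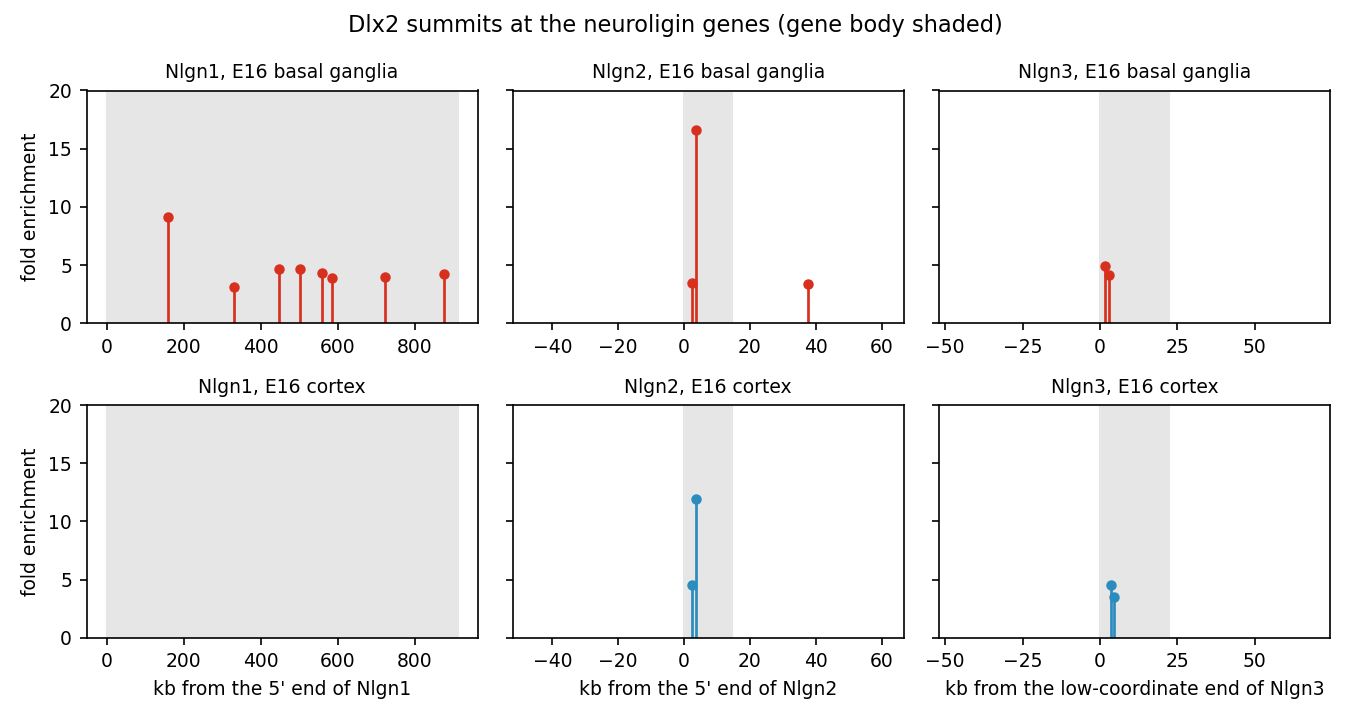
Fold enrichment of each Dlx2 summit at Nlgn1, Nlgn2 and Nlgn3 against distance in kb from the 5′ end (Nlgn1, Nlgn2) or the low-coordinate end (Nlgn3) of the gene body (grey), in E16 basal ganglia (top) and E16 cortex (bottom). Nlgn2 has its highest summit inside the gene in both lists, and the Nlgn1 panel for E16 cortex is empty.

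Over the 5 genes together, the middle of the regions' fold enrichments was near that of the lists in basal ganglia and E16 cortex. In E16 bulb it was lower, but all 4 regions there were at Nrxn3. The median fold enrichment at the 5 genes was 4.68 in E16 basal ganglia against 4.55 for the whole list, 4.89 against 5.02 in E16 cortex, and 4.73 against 5.25 in E16 bulb. The number above the list median was 27 of 50, 8 of 18 and 1 of 4, and the single P3 cortex region was above it. The genes differed in this. In E16 cortex the Nrxn2 regions had a median of 8.35, with 7 of 12 above the list median, and these 12 include the 4 nearest to Sf1. The highest region of Nlgn1, in basal ganglia, had 9.15 and rank 1249 of 14795. The 5 genes had 53 merged places, of which 16 were in 2 or more lists, against 27.1% of the 18667 places of the series. Of the 16, 10 were at Nrxn2, 3 at Nrxn3, 2 at Nlgn2 and 1 at Nlgn3. Those at Nrxn2 include places in its flank at Sf1. When regions over 1 kb were left out, 5 shared places were left, and 12 when summits had to lie within 200 bp. No count of the whole series in these ways is given here, so what width adds to the sharing was not tested.

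**Figure D5:**
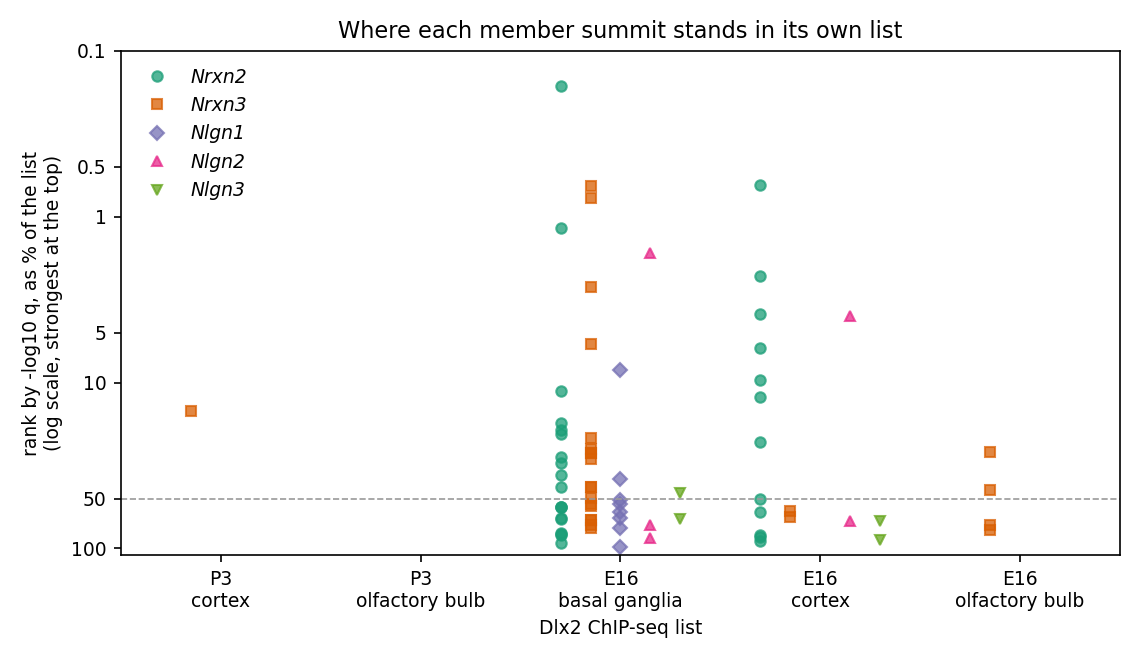
Rank by −log10 q of every summit at the 5 genes, as a percentage of its own list (log scale, strongest at the top), for each list; the dashed line marks the middle of the list. The highest points are Nrxn2 in E16 basal ganglia and E16 cortex, followed by Nrxn3 in E16 basal ganglia.

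Other genes of the trans-synaptic complex were read from a list of 28, all of which were found in the annotation. A summit was assigned to 5 in P3 cortex, 1 in P3 bulb, 19 in E16 basal ganglia, 10 in E16 cortex and 2 in E16 bulb. The shares of all genes were 12.4%, 4.04%, 42.4%, 28.7% and 6.62%, and 7 of the 28 had none in any list. These shares do not allow for gene length, and the 28 bodies run from 2.59 kb (C1ql2) to 1485.4 kb (Magi2). Of genes with a body of 300 kb or more, 80.3% had a summit in E16 basal ganglia, against 37.5% of those under 30 kb. The 3 genes for cytosolic partners of neurexins, Cask, Apba1 and Apba2, all had summits in the basal ganglia, led by Apba1 at 13.2, with 9.58 in E16 cortex. Of 18 genes for neurexin ligands, 11 had one in the basal ganglia, 4 in E16 cortex and 0 in E16 bulb. Among these, the neurexophilin gene Nxph4 had 8.89 in basal ganglia, although 0 of its 8 summits there lay in the gene and 5 other genes lie within its flanks. The latrophilin gene Adgrl2 had 9.97 in E16 cortex.

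Of 7 genes for neuroligin partners, 5 had a summit in the basal ganglia and 4 in E16 cortex. The scaffold gene Magi2 had 10.3 in basal ganglia and 10.4 in E16 cortex, and Apba2 had 10.4 in basal ganglia. Mdga1 and Mdga2, whose products bind neuroligins and block neurexin binding, were the 2 listed genes with a summit in E16 bulb, at 4.5 and 6.14. Mdga1 was also in P3 cortex, at 5.05, with the same presence in the 5 lists as Nrxn3. In P3 cortex and E16 bulb, however, 0 of the Mdga1 summits lay in the gene, unlike those of Nrxn3. The highest in P3 cortex were Lrrtm2 (5.99), Lrrtm4 and Mdga1 (5.05 each), and the only one in P3 bulb was Adgrl1 (3.29). The P3 cortex summit of Lrrtm2 and the P3 bulb summit of Adgrl1 lay outside the gene bodies. Lrrtm1, Lrrtm2 and Lrrtm3 each share their flanks with 1 other gene. Gphn, which encodes the scaffold protein gephyrin of inhibitory synapses, had a summit in P3 cortex alone (3.79).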

How the data were processed

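Per the submitters' processing notes, Trimmomatic, Bowtie2, SAMtools and MACS2 were used on mm10; the sources used here do not state versions, threshold or control library. The authors deposited 1 narrowPeak list per ChIP library. The deposited fold enrichment is the authors' ratio at the summit over local background, and the deposited −log10 values are those of the p-value and q-value. The deposited score was not used.

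Gene bodies and start windows came from RefSeq tables of GRCm38.p6, the same build, which give no exons, so exon, intron and UTR are not stated. Summits (column 2 plus column 10, counted here from 1) were assigned within 50 kb of a body. Regions of different lists overlapping by at least 1 bp were merged into places, which can join several summits. No test was made. The counting was tested on simulated data. Python 3.11.15, pandas 2.3.3, NumPy 2.4.6 and Matplotlib 3.10.9 were used.

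Summits were named where a gene had 5 or fewer in a list, otherwise the 3 highest; partner genes by the 3 highest of each list; genes like a member where it was in at least 3 lists. Others were named after their values were seen. Some genes that these rules name are not reported here. The Mdga genes were moved to the neuroligin partners, unlike in the plan. The members and gene lists were chosen with earlier results of these data known. The alternatives changed the window, the −log10 q minimum, the number of regions, the gene assignment and the distance for sharing.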

Additional observations from a re-analysis of the deposited data

How the results depend on the processing

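Of 55 alternative values for 11 counts, 43 were within 1.5 times the value given above. With bodies extended by 100 kb, the genes with a summit numbered 2 in P3 cortex, 1 in P3 bulb and 2 in E16 bulb, and the summits 2 in P3 cortex and 1 in P3 bulb, by the region at Zbtb4. When each list was limited to its 734 strongest regions by −log10 q, 3 genes and 6 summits were left in E16 basal ganglia, 2 genes and 6 summits in E16 cortex, 1 summit in E16 bulb, and 5 places in 2 or more lists; fewer regions are compared there. Without regions over 1 kb, an alternative chosen after seeing the data, 5 shared places were left of 16, and without the P3 cortex list, also chosen after seeing the data, 16. Shared places numbered 12 when summits had to lie within 200 bp. A limit of 10 kb, a −log10 q of at least 5, and counting only summits nearest to the gene moved no count past 1.5 times. Unknown depth and list lengths of 734 to 14795 limit any reading of a missing region. No paired analysis was possible because each tissue and age has 1 library.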
